A study of Mus musculus with 12 samples.

Results

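The parental 4T1 tumour cells were the 6011 cells that the authors' deposited annotation calls tumour in the library of unsorted (Total) cells from the tumour grown from the parental 4T1 line, out of 115612 cells in the 12 libraries of the series. After 158 cells with a high doublet score were left out, 5853 cells were used. They carried 84874535 unique molecular identifiers (UMIs, the tags used to count captured molecules). 4T1 is a mouse mammary carcinoma line that resembles triple-negative breast cancer and, unlike a clone, is a mixture of cells. For comparison, the tumour cells of the tumours grown from 5 clones of the line, each expanded from a single cell and named E, EM1, EM2, EM3 and M, were taken from their own Total libraries. All 6 lines were grown in culture, then implanted in the mammary fat pad of female BALB/c hosts aged 9 to 11 weeks, and 1 tumour per line was digested with enzymes and processed, so each clone stands for its state through 1 clone and 1 tumour, and no comparison below has a replicate or a test.

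Epithelial cells hold each other through E-cadherin (Cdh1), EpCAM and the claudins of tight junctions and build their cytoskeleton from keratins. In the epithelial-mesenchymal transition these genes are turned down and vimentin (Vim), fibronectin (Fn1) and matrix genes are turned up, often only in part, so that intermediate states carry both programmes. Transcription factors of the Snail and Zeb families bind E-box sequences in promoters of epithelial genes and repress them, while Grhl2 and Ovol factors and the splicing regulators Esrp1 and Esrp2 maintain the epithelial state.

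The promoters of the epithelial genes are where such repressors are known to act, and those of Epcam and Cldn4, which differed widely between the tumours and between the parental cells, are shown with the E-box letters CACCTG or CAGGTG (the same site on either strand) in capitals. Each run is the 250 bases before the RefSeq transcription start on GRCm38.p6, 5′ to 3′ in the direction of the gene, at chr17:87635729-87635978 on the plus strand for Epcam and chr5:134946935-134947184 on the minus strand for Cldn4.
Epcam: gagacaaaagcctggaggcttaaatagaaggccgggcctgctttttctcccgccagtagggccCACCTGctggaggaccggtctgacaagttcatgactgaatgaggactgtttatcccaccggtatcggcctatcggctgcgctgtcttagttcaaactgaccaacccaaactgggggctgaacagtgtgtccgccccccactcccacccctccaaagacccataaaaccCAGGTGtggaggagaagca
Cldn4: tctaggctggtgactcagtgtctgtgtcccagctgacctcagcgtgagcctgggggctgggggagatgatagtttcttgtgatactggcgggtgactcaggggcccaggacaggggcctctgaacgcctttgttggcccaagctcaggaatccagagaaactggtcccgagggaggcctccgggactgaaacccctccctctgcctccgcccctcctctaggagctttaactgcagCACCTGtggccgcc
The Epcam stretch held 2 such matches, starting 187 and 19 bases before the transcription start, and the Cldn4 stretch held 1, starting 14 bases before it. Of the 13 epithelial genes listed below, 9 had 11 promoters in the RefSeq table, and 7 of the 11 held a match in the 250 bases, against 5657 of 32851 promoters in the table (17.2%). The promoters of Krt14 and Cldn3, which also differed widely between the tumours, held no match, nor did 1 promoter each of Cldn7 and Ocln. Cdh1, Krt19, Esrp1 and Grhl2 had no entry in the RefSeq table. These matches describe the letters in the windows, and binding was not measured.

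The label of the cells was checked against 4 markers in the parental library itself, using CPM (UMIs of a gene scaled to the same large total in every sum) over the summed cells of a class. The keratin Krt8 stood at 2253 CPM (95% Poisson interval 2243 to 2263) in the tumour cells and 107 CPM in the 2562 macrophages. Epcam stood at 253 CPM (249.6 to 256) in the tumour cells and 13.9 CPM in macrophages. Vim stood at 13012 CPM in the tumour cells, 9888 CPM in 258 fibroblasts and 3958 CPM in macrophages, so it does not mark tumour cells alone. Serpine2, a secreted inhibitor of thrombin and plasminogen activators, stood at 693 CPM in the tumour cells, 47.8 CPM in macrophages and 1170 CPM in fibroblasts. In the 7 other classes with a type name, Krt8 ran from 107 to 575 CPM and Epcam from 13.9 to 80.7 CPM, all below the tumour cells. Col1a1, a fibroblast collagen, was at 55.7 CPM in the tumour cells and 42043.0 CPM in fibroblasts. Intervals here and below cover counting error only.

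The parental tumour cells were deep, with a median of 13053 UMIs per cell against 6417 to 15279 in the clones, and made up 56.3% of the cells in their library (5853 of 10392, exact binomial interval 55.4 to 57.3%) against 7.13 to 43.5% in the clones. A UMI of Ptprc, which encodes the leukocyte antigen CD45, was present in 253 of the 5853 cells (4.32%). All members of 10 lists of markers of other cell types were detected somewhere among the tumour cells, with no list at 0; the summed macrophage list stood at 315 CPM in the parental cells against 196 to 1323 CPM in the clones, and the granulocyte list at 371 CPM against 257 to 1535 CPM. Clone E was the highest for both lists. Of the droplet barcodes of the parental Total library, 1112 also occurred in the CD45-sorted parental library and 104 to 199 in each of the other 10. Complete barcodes, with the part after the droplet barcode, were shared with 2 libraries, the Total libraries of Clone E (148) and EM1 (104). There every shared droplet barcode was shared in full, so that part is not particular to 1 sample. Each line was 1 library of its kind, so a difference between lines cannot be told apart from a difference between libraries.

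The most abundant messages of the parental cells joined a mesenchymal cytoskeleton and matrix with keratin. Vim and Fn1 took the largest shares of UMIs, followed by the stress-induced Ier3, osteopontin (Spp1), the elongation factor Eef1a1, the nuclear lamin Lmna, and Odc1, the first enzyme of polyamine synthesis. The metallothioneins Mt2 and Mt1, the prostaglandin synthase Ptgs2, the ferritin Fth1, the granulocyte growth factor Csf3, the S100 genes S100a10, S100a6 and S100a4, and Jund, Tpt1, Igfbp4, Krt8 and Cebpb completed the 20 highest. Together these 20 genes held 9.26% of all UMIs. Their order reflects shares of counted molecules, which also depend on how each gene is captured. Some of them were higher in the parental cells than in each clone: Odc1 stood at 5116 CPM against 1583 to 3253 CPM, Ier3 at 8279 CPM against 2947 to 5612 CPM, and Mt2 at 4204 CPM against 1004 to 2813 CPM.

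Of the 13 epithelial genes, 13 were lower in the parental cells than in Clone E, and 5 of them (Cdh1, Epcam, Krt14, Esrp1 and Grhl2) were also above the 4 other clones. EM1 was above the parental cells for 7 of the 13 and EM2 for 3. Cdh1 stood at 51.9 CPM in the parental cells, 746 in Clone E, 4.19 in M, 3.10 in EM3, 24.4 in EM2 and 25.9 in EM1. Epcam stood at 253 CPM in the parental cells, 1595 in Clone E, 49.9 in M, 4.79 in EM3, 121 in EM2 and 140.6 in EM1. Both were far below Clone E and above every other clone. Within the parental library, however, Cdh1 stood at 91.5 CPM in B cells (33 UMIs) and 96.5 CPM in dendritic cells (24 UMIs), above the tumour cells. The tight-junction gene Cldn4 stood at 295 CPM in the parental cells, 4674 in Clone E, 104 in M, 13 in EM3, 91.2 in EM2 and 581 in EM1, so here EM1 was above the parental cells as well. EM1 was also above them for the claudins Cldn3 (81.8 against 46 CPM) and Cldn7 (80.3 against 52.5 CPM) and for occludin, Ocln (28.0 against 11.2 CPM), and EM2 for Krt19 (95.1 against 56.2 CPM). The basal keratin Krt14 stood at 40.6 CPM in the parental cells, 500 in Clone E, 1.80 in M, 0.599 in EM3, 11.9 in EM2 and 26.7 in EM1, the same order as Cdh1 at the top. Krt8 spanned a narrower range, with 2253 CPM in the parental cells, 3103 in Clone E, 1195 in M, 1513 in EM3, 2724 in EM2 and 2511 in EM1, where 3 clones were above the parental level. Among the regulators that maintain the epithelial state, Esrp1 stood at 33.5 CPM in the parental cells against 241 in Clone E and 0.247 to 17.8 in the other clones, and Grhl2 at 22.5 CPM against 57.5 in Clone E and 0.881 to 12.8.

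Vim, Sparc, Twist1 and Zeb2 lay above Clone E and below the other 4 clones, and other mesenchymal genes had other orders. Vim stood at 13012 CPM in the parental cells, 4415 in Clone E, 13590 in M, 19067 in EM3, 16065 in EM2 and 14024 in EM1. Sparc, a matrix glycoprotein, stood at 457 CPM in the parental cells, 125 in Clone E, 864 in M, 841 in EM3, 728 in EM2 and 916 in EM1. Serpine2 stood at 693 CPM in the parental cells, 3.30 in Clone E, 801 in M, 892 in EM3, 1064 in EM2 and 654 in EM1, so its parental level lay just above that of EM1. S100a4, a calcium-binding protein of motile cells, stood at 2343 CPM in the parental cells, 455 in Clone E, 975 in M, 1646 in EM3, 3157 in EM2 and 1796 in EM1, so here the parental cells were above 4 clones. Fn1 did not separate Clone E from the rest, at 10216 CPM in the parental cells, 14213 in Clone E, 5026 in M, 12644 in EM3, 15143 in EM2 and 12660 in EM1. Of the transcription factors, Twist1 stood at 294 CPM in the parental cells against 183 in Clone E and 317 to 513 in the other clones, and Zeb2 at 151 CPM against 126 and 165 to 260. Snai1 was lower in the parental cells, at 101 CPM, than in any clone (120 to 304 CPM), and Zeb1, Snai2, Cdh2 and Prrx1 were at 6.66, 0.401, 0.200 and 0.789 CPM in the parental cells.

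**Figure D1:**
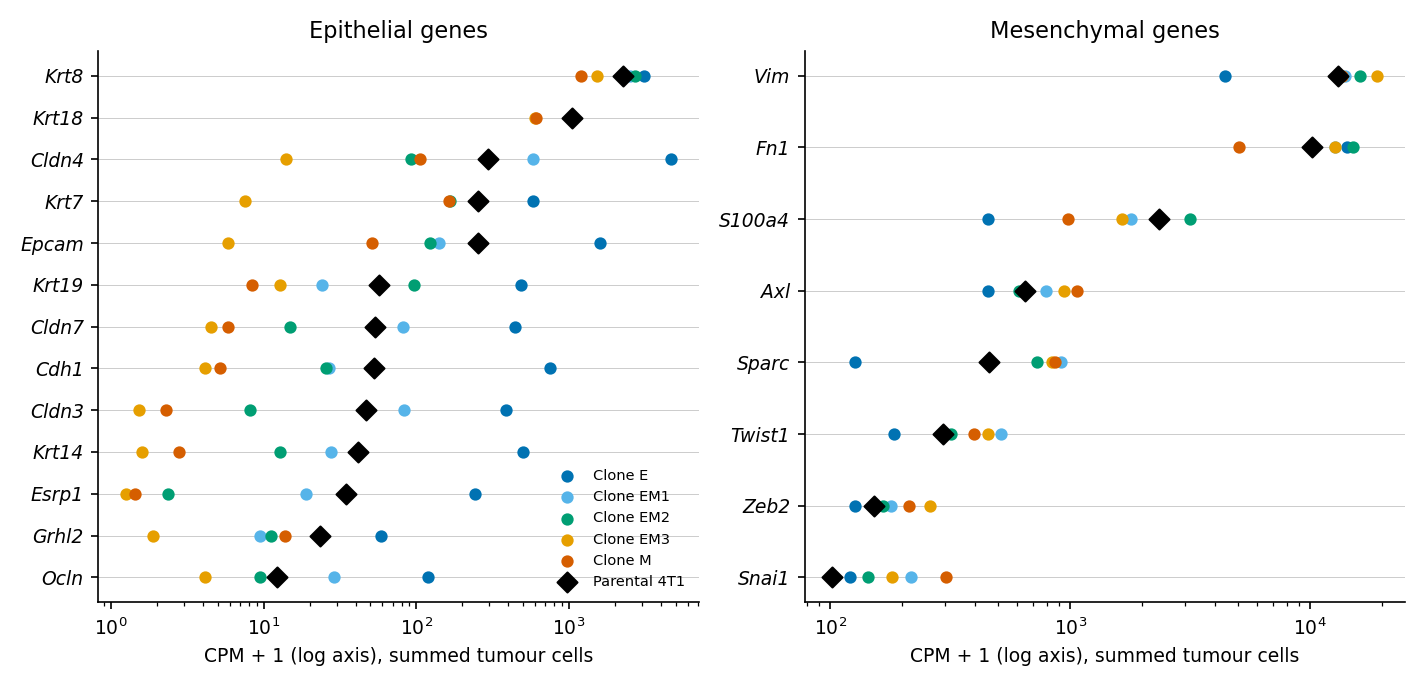
CPM plus 1 on a log axis for each epithelial gene (left) and each mesenchymal gene with at least 50 CPM in any tumour (right), in the summed tumour cells of each tumour; diamonds are the parental cells and circles the clones, with 1 tumour each. The parental diamond for Cdh1, at 51.9 CPM, sits between Clone E at 746 CPM and the other clones, and that for Vim, at 13012 CPM, between Clone E and the other 4.

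A score of the summed counts, which subtracts the mean log2(CPM + 10) of 13 epithelial genes from that of 12 mesenchymal genes, placed the parental cells at 0.84 (counting interval 0.83 to 0.85). Clone E stood at −1.97, EM1 at 1.20, EM2 at 1.83, M at 2.42 and EM3 at 3.32. The parental tumour thus lay between Clone E and EM1, nearest EM1. Against Clone E, 11 of the 13 epithelial genes were lower by a log2((CPM + 10) ratio) of 1 or more and 0 higher, with a median of −2.61, where 6.08% of all 5823 genes with at least 50 CPM in any tumour were lower and the median of all was 0.06. All 13 mitochondrial genes were also lower than in Clone E, at a sum of 6393 against 18528 CPM, with a median of 0.549% mitochondrial UMIs per parental cell and 1.79% per Clone E cell, and the part of RNA quality in this comparison was not tested. Against EM3, 10 of 13 were higher and 0 lower, with a median of 2.21, where 1.46% of all genes were higher. Against M, 8 of 13 were higher (all genes, 2.23%), against EM2 6 of 13 (all genes, 0.876%) and against EM1 1 of 13 (all genes, 1.18%). Of the 8 mesenchymal genes past 50 CPM, 3 were higher than in Clone E (all genes, 2.94%) and 0 lower, while 0 were higher and 1 lower than in EM1 (lower among all genes, 2.35%). Against M, 2 were higher and 1 lower (all genes, 2.23% and 2.23%), and against EM2 and EM3 0 were higher and 0 lower.

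Over all 5823 genes the parental profile was closest to EM2. The root mean square of the log2((CPM + 10) ratio) was 0.351 to EM2, 0.399 to EM3, 0.455 to EM1, 0.484 to M and 0.649 to Clone E. Distances between the clones themselves ran from 0.396 (EM2 to EM3) to 0.811 (E to M), so the parental cells were nearer to EM2 than any 2 clones were to each other. The number of genes past a log2 ratio of 1 followed the same order at its ends, with 51 higher and 59 lower against EM2 and 171 higher and 354 lower against Clone E.

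No gene with at least 50 CPM lay above all 5 clones, or below all 5, by a log2 ratio of 1 or more; the parental cells were the highest of the 6 tumours for 478 genes (8.21%) and the lowest for 632 (10.9%). At a limit of 0.5, 21 genes lay above all 5 clones and 14 below, and those named here were picked after their values were seen. Pthlh, the parathyroid hormone-related protein known for its part in bone metastasis, stood at 620 CPM in the parental cells, 287 in Clone E, 137 in M, 339 in EM3, 309 in EM2 and 233 in EM1. Lif, a cytokine of the interleukin-6 family, stood at 1196 CPM in the parental cells, 670 in Clone E, 556 in M, 619.7 in EM3, 729 in EM2 and 686 in EM1. Il11, of the same family, stood at 305 CPM in the parental cells, 51.7 in Clone E, 184 in M, 168 in EM3, 84.1 in EM2 and 92.6 in EM1. Procr, the endothelial protein C receptor, stood at 641 CPM in the parental cells, 144 in Clone E, 171 in M, 399.5 in EM3, 129.9 in EM2 and 129.7 in EM1. The highest clone was EM3 for Pthlh and Procr, EM2 for Lif and M for Il11, and the parental cells were above it each time.

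Genes below every clone included Tap2, Irf1 and Cd274, which are known targets of interferon-gamma. They were picked from a mixed list, where Col6a2 was furthest below, at 24.5 CPM against 53.2 to 251 CPM in the clones. Tap2, which carries peptides to MHC class I molecules, stood at 119.7 CPM in the parental cells, 307 in Clone E, 216 in M, 272 in EM3, 314 in EM2 and 266 in EM1. The transcription factor Irf1 stood at 67.9 CPM in the parental cells, 235 in Clone E, 108 in M, 114 in EM3, 194 in EM2 and 157 in EM1. Cd274, which encodes the checkpoint ligand PD-L1, stood at 53.4 CPM in Clone E, 15.8 to 16.7 CPM in the other clones and 5.69 CPM in the parental cells. It passed the minimum of 50 CPM through Clone E alone, and its other values lay near the 10 CPM added before ratios. Of the 12 genes on the antigen presentation list, 7 were lower than in EM1 (all genes, 2.35%), 5 than in EM2 (1.01%), 4 than in Clone E (6.08%), 2 than in EM3 (0.859%) and 0 than in M (2.23%), and 0 were higher than in any clone. Of 10 interferon response genes past 50 CPM, 5 were lower than in Clone E (all genes, 6.08%), 5 than in EM1 (2.35%), 5 than in EM2 (1.01%), 1 than in EM3 (0.859%) and 0 than in M (2.23%). Genes of MHC class II presentation, picked after their values were seen, were among those furthest below Clone E, EM1, EM2 and EM3. Parental Cd74 was 75.9 CPM, against 1173 in Clone E, 71.3 in M, 534 in EM3, 657 in EM2 and 1388 in EM1. Parental H2-Aa was 29.4 CPM, against 621 in Clone E, 38.7 in M, 193 in EM3, 280 in EM2 and 700 in EM1. Macrophages are known to express these genes as well; their marker list stood at 315 CPM in the parental cells and 196 to 1323 CPM in the clones, and its part in these differences was not tested.

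Several genes of oxidative stress and of signals to immune cells were higher than in clones. Of 11 oxidative stress genes past 50 CPM, 4 were higher than in Clone E (all genes, 2.94%), 2 than in EM2 (0.876%), 4 than in EM1 (1.18%), 1 than in EM3 (1.46%) and 2 than in M (2.23%), and 1 was lower than in EM1 (all genes, 2.35%). Hmox1, the heme oxygenase, stood at 896 CPM in the parental cells, 637 in Clone E, 226 in M, 508 in EM3, 315 in EM2 and 503 in EM1. Mt1 stood at 2351 CPM in the parental cells, 548 in Clone E, 1489.5 in M, 830.4 in EM3, 1195 in EM2 and 1089 in EM1. Of 22 immune signal genes past 50 CPM, 7 were higher and 0 lower than in M (all genes, 2.23% and 2.23%), and 4 higher and 0 lower than in EM3 (all genes, 1.46% and 0.859%). Against EM2, 3 were higher and 2 lower (all genes, 0.876% and 1.01%), and against EM1 4 were higher and 5 lower (all genes, 1.18% and 2.35%). Against Clone E, 5 were higher (all genes, 2.94%) and 2 lower (all genes, 6.08%). The neutrophil chemokine Cxcl2 stood at 947 CPM in the parental cells, 410 in Clone E, 202 in M, 446 in EM3, 676 in EM2 and 138 in EM1. Ccl2, which attracts monocytes, stood at 197 CPM in the parental cells, 10.1 in Clone E, 107 in M, 4.90 in EM3, 3.76 in EM2 and 72.3 in EM1.

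Single cells were compared after each was thinned to 3000 UMIs, which left 5489 parental cells (364 shallower cells were left out) and 647 to 4503 cells of each clone. The balance of a cell was the log2 ratio of its mesenchymal UMIs plus 1 to its epithelial UMIs plus 1. The parental cells had a median of 2.74, with 0.95 at the 5th percentile and 4.84 at the 95th. Clone medians were 0.64 in E, 2.75 in EM1, 3.02 in EM2, 3.49 in M and 4.06 in EM3. The range of the parental cells between these percentiles therefore held the medians of EM1, EM2, M and EM3, and Clone E's median lay below it. The same was true of the range between these percentiles within each of EM1, EM2, M and EM3. Holding these medians was thus not particular to the parental cells. The spread among parental cells lay within the range of the clones: the distance between the quartiles was 1.45, against 1.65 in EM3, 1.54 in E, 1.47 in M, 1.27 in EM1 and 1.11 in EM2.

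**Figure D2:**
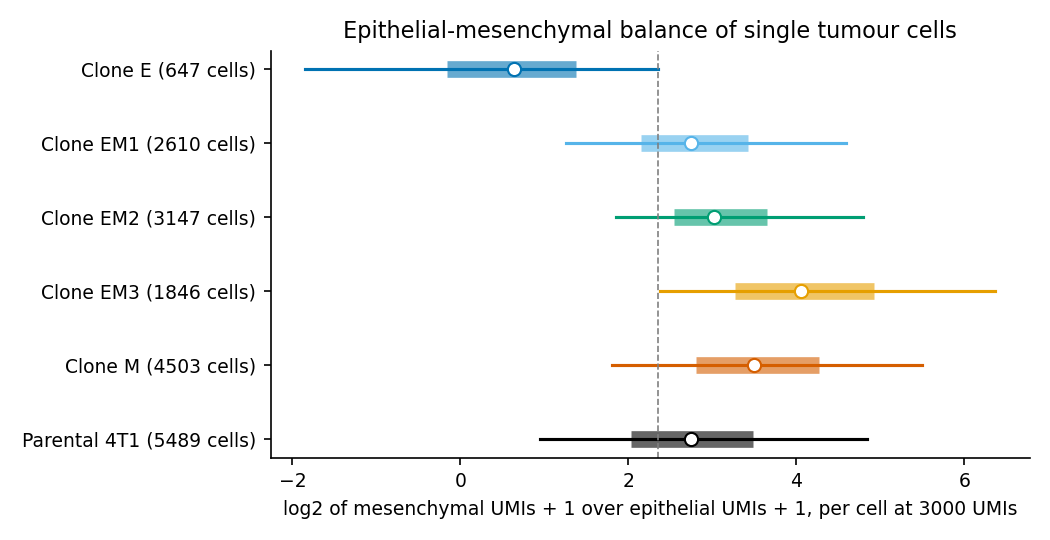
Log2 of mesenchymal UMIs plus 1 over epithelial UMIs plus 1 per tumour cell at 3000 UMIs in each of the 6 tumours; circles are medians, thick bars the quartiles, thin lines the 5th to 95th percentile, and the dashed line the 95th percentile of Clone E at 2.36. The parental line runs from 0.95 to 4.84 and crosses the dashed line, with a median of 2.74 beside 2.75 in EM1.

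By this balance, cells on the epithelial side were fewer than in Clone E and about as frequent as in EM1. A balance at or below 2.36, the 95th percentile of Clone E, was found in 35.4% of parental cells (1942 of 5489, exact binomial interval 34.1 to 36.7%), 32.5% of EM1, 17.3% of EM2, 13.6% of M and 4.66% of EM3 cells. Without Fn1, which stood at 10216 CPM in the parental cells, 14213 CPM in Clone E and 5026 to 15143 CPM in the other clones, the share was 14.0% in the parental cells, 11.3% in EM1 and 0.488 to 2.51% in the other 3. A balance at or below Clone E's median of 0.64 was found in 187 parental cells (3.41%, interval 2.94 to 3.92%). In the clones other than E this share was 1.53% in EM1, 0.826% in EM2, 0.422% in M and 0.054% in EM3. At the other end, 13.2% of parental cells (724) reached the median of EM3 and 25% (1372) that of M. The median of EM3 was also reached by 0.155% of Clone E, 10.8% of EM1, 14.8% of EM2 and 30.8% of M cells. That of M was reached by 0.464% of Clone E, 22.8% of EM1, 30.6% of EM2 and 68.0% of EM3 cells. The parental shares thus lay between those of EM1 and EM2.

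Krt8 and Krt18 are expressed in every clone, so the other 11 epithelial genes were counted on their own. They gave a mean of 3.62 UMIs per parental cell, against 29.0 in Clone E, 0.160 in EM3, 1.13 in M, 1.98 in EM2 and 4.12 in EM1. No UMI of them was found in 1470 parental cells (26.8%), and in 0 of 647 Clone E cells, which allows a share of up to 0.569% by the exact interval. In the other clones this share was 17.7% in EM1, 42.0% in EM2, 52.9% in M and 89.7% in EM3. At least 7 UMIs, the 5th percentile of Clone E, were found in 792 parental cells (14.4%, interval 13.5 to 15.4%) and 17.5% of EM1 cells, and at least 23, the median of Clone E, in 110 (2.00%, interval 1.65 to 2.41%). The limit of 23 was also reached by 1.49% of EM1, 0.794% of EM2, 0.222% of M and 0% of EM3 cells. The richest 5% of parental cells held 35.8% of the UMIs of these 11 genes, against 66.4% in EM3, 52.9% in EM2, 39.7% in M, 29.1% in EM1 and 18.2% in Clone E. The mean UMIs of these genes, given above, ran from 0.160 to 29.0, and the part of the mean in these shares was not tested.

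At 3000 UMIs, Epcam had a UMI in 35.8% of parental cells, 92.0% of Clone E cells and 3.74% of the macrophages of the parental library; before thinning the parental value was 61.7%, at a median of 13053 UMIs per tumour cell and 7412 per macrophage. Cldn4 had a UMI in 28.3% of parental cells, 93.7% of Clone E cells and 5.02% of macrophages. Cdh1 had a UMI in 11.4% of parental cells, 81.3% of Clone E cells and 6.89% of macrophages. Serpine2 had a UMI in 54.1% of parental cells, 1.08% of Clone E cells and 14.2% of macrophages. Vim had a UMI in 5487 of the 5489 parental cells and in 98.4% of macrophages, so its detection did not separate them. Its mean was 38.1 UMIs per parental tumour cell and 12.7 per macrophage.

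Cells rich in epithelial messages carried more Krt8 and less Serpine2. From the 1470 parental cells with 0 UMIs of the 11 epithelial genes, through the 2798 with 1 to 4, the 750 with 5 to 9 and the 361 with 10 to 22, to the 110 with 23 or more, mean Serpine2 was 3.71, 1.92, 0.968, 0.465 and 0.327 UMIs per cell. Mean Krt8 ran the other way, with 4.8, 6.36, 8.38, 10.7 and 20.4 UMIs. Slpi, a secreted protease inhibitor, followed Serpine2, with 9.55, 4.72, 2.76, 2.49 and 1.76 UMIs. Vim was lower from group to group, with 41.8, 38.3, 36.3, 30.9 and 20.8 UMIs (25.4 in the last group without 25 cells of a small keratin-rich cluster described below). Fn1 showed no order, with 35.2, 29.8, 33.7, 37.6 and 29.6 UMIs. Median depth before thinning was 13702.5, 13923, 12788, 11699 and 9521 UMIs in the same groups, and the macrophage list had 0.963 UMIs per cell in the first and 2.30 in the last; their part in the order was not tested. Spearman's rank correlation between the 11 genes and Serpine2 over the 5489 parental cells was −0.34, against −0.06 to −0.24 within the clones, as a description of cells that share a library. Serpine2 had a UMI in 1.08% of Clone E cells, and 89.7% of EM3 cells had no UMI of the 11 genes. The correlations in Clone E and EM3 thus rest on few counts. Clones had such orders too. Between cells with 0 and with 10 to 22 UMIs of the 11 genes, EM1 and M differed likewise. Mean Serpine2 was 3.48 and 1.28 UMIs in EM1 and 2.88 and 1.59 in M. In EM2 it was 4.35, 2.53 and 1.23 UMIs in cells with 0, 1 to 4 and 5 to 9 UMIs of the 11 genes. Mean Krt8 was 5.48 and 9.20 in EM1 and 2.72 and 8.06 in M. Mean Slpi was 7.51 and 3.94 in EM1 and 7.25 and 4.15 in M. Vim was lower in EM1 (40.0 and 36.3) but higher in M (38.0 and 44.7), and Slpi had no such order in EM2.

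**Figure D3:**
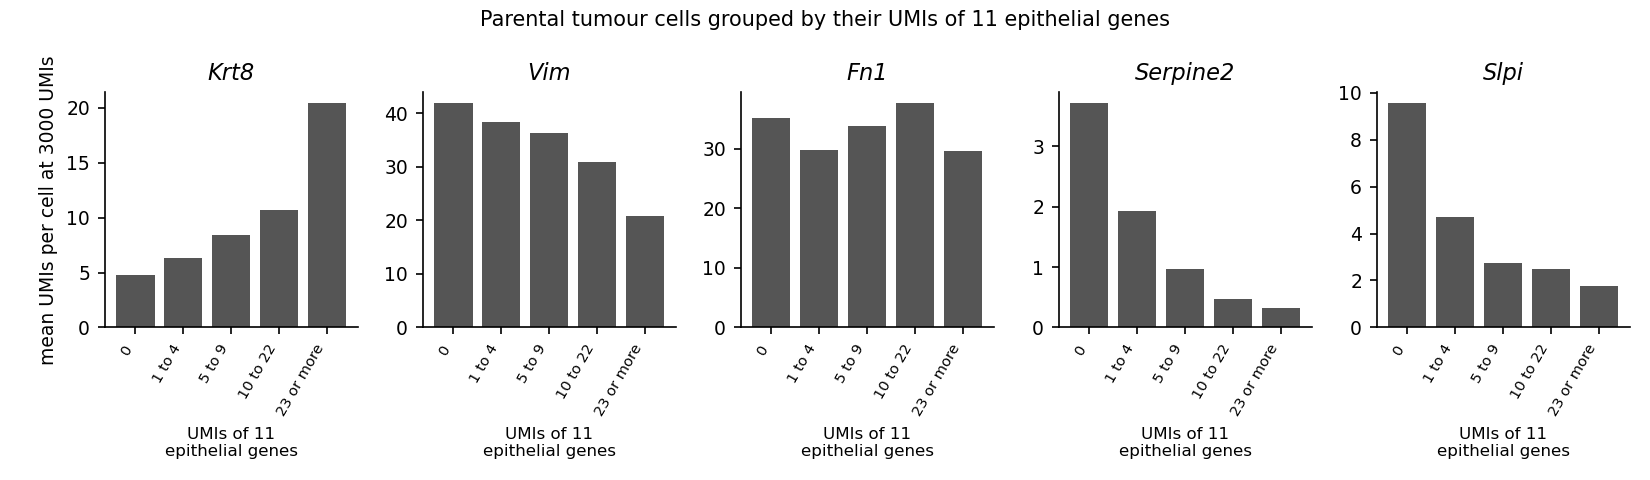
Mean UMIs per parental tumour cell at 3000 UMIs for 5 genes, in cells grouped by their UMIs of 11 epithelial genes (0, 1 to 4, 5 to 9, 10 to 22, 23 or more); each bar is the mean of a group of 110 to 2798 cells of 1 tumour. Serpine2 goes from 3.71 to 0.327 and Krt8 from 4.8 to 20.4 across the groups, while Fn1 has no order.

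Epithelial and mesenchymal messages were found in the same cells. Of the 792 parental cells with at least 7 UMIs of the 11 epithelial genes, 720 (90.9%) had more Vim UMIs than the median Clone E cell, which had 8, and 313 (39.5%, interval 36.1 to 43.0%) reached the parental median of 35 Vim UMIs. Over all 5489 parental cells these shares were higher, 97.2% and 52.3%. The macrophages of the parental library had a mean of 12.7 Vim UMIs at the same depth, so more than 8 does not mark mesenchymal tumour cells alone. Of the 110 cells with 23 or more epithelial UMIs, 74 (67.3%) exceeded the Clone E median of Vim and 24 (21.8%) reached the parental median. In Clone E cells with 23 or more epithelial UMIs, mean Vim was 11.9 UMIs, against 20.8 in those 110 parental cells. Of these, the 25 cells of the keratin-rich cluster had a mean of 5.16 Vim UMIs, below Clone E, with 5 of 25 above its median, and the other 85 had a mean of 25.4, with 69 above it. EM2 held 25 cells with 23 or more epithelial UMIs, with a mean of 2.36 Vim and 41.4 Krt8 UMIs, and EM1 held 39, with 23.8 and 18.1 UMIs.

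Each parental cell was next given to the clone whose profile made its counts most likely, over 1546 genes that differed between clones by a log2 ratio of at least 1. EM2 took 60.2% of parental cells (3302 of 5489, interval 58.8 to 61.5%), EM3 24.8%, EM1 5.81%, Clone E 4.86% and M 4.39%. Clone cells kept out of the profiles returned to their own clone in 96.3% (E), 84.4% (EM1), 93.4% (EM2), 91.0% (EM3) and 96.5% (M) of cases. These cells came from the same libraries as the profiles, so their return does not measure how well cells of another library are assigned. The assignment is a forced choice among 5 profiles, each of 1 tumour, and it does not show descent from a clone. The order of the shares did not follow the summed score, by which the parental tumour lay nearest EM1.

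**Figure D4:**
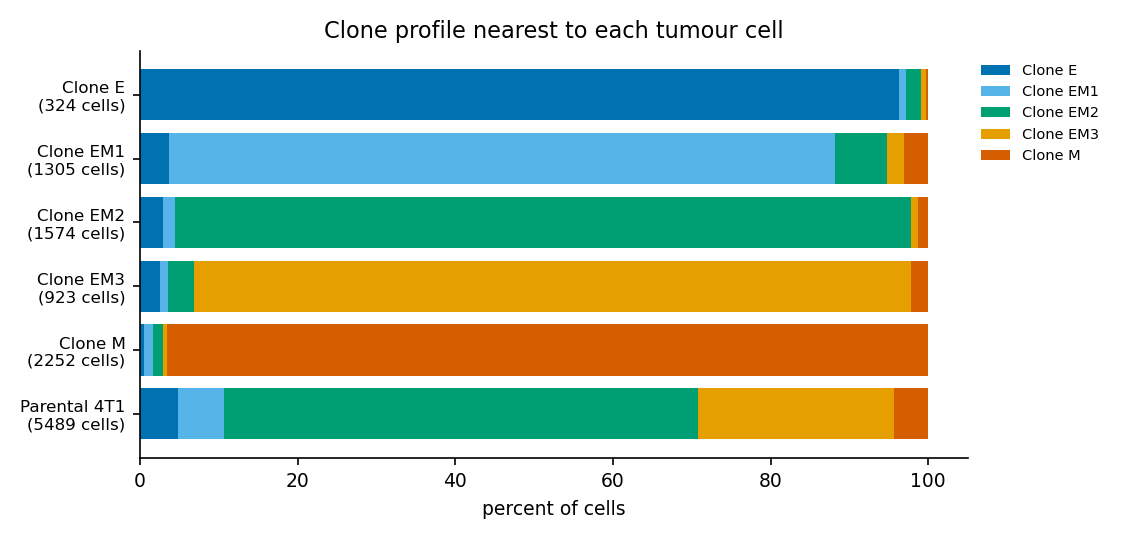
Percent of cells whose nearest clone profile was each of the 5 clones, for the parental cells and for the clone cells not used to make the profiles; each bar is 1 tumour. The clone bars are 84.4 to 96.5% their own colour, and the parental bar is 60.2% EM2 and 24.8% EM3.

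The levels of the cells given to each clone are a description, since genes that differ between clones made the assignment. In the 1360 cells given to EM3, Epcam stood at 50.5 CPM, Cdh1 at 7.60 CPM, Procr at 1237 CPM and Serpine2 at 1185 CPM. In the 3302 cells given to EM2, they stood at 292, 53.1, 428 and 576 CPM. In the 319 cells given to EM1, Epcam stood at 472 CPM and Cdh1 at 126 CPM, and in the 241 cells given to M at 138 and 22.1 CPM. In the 267 cells given to Clone E, Epcam stood at 1001 CPM, Cdh1 at 317 CPM, Procr at 259.7 CPM and Serpine2 at 257 CPM, but mitochondrial messages at 22752 CPM against 5202 to 7609 CPM in the other groups. Of these 267 cells, 75 came from a sub-cluster led by mitochondrial genes and 25 from the keratin-rich cluster. When genes higher in the other cells of the Clone E library and mitochondrial genes were left out, 276 parental cells (5.03%) were nearest Clone E, with Cdh1 at 388 CPM, Epcam at 1159 CPM and Vim at 6215 CPM, against 746, 1595 and 4415 CPM in the Clone E tumour itself. EM1 then took 8.60% and EM3 17.3%. The group of 276 still had 15048 CPM of mitochondrial messages, against 6592 to 8545 CPM in the others, and 848 CPM of the macrophage list, against 311 to 409 CPM, and 48 of its cells came from the sub-cluster led by mitochondrial genes. Over all 1546 genes but without the 4 smallest sub-clusters (7 to 10, described below), 2.87% of parental cells were nearest Clone E, and 3.10% when the 3000 UMIs of each cell were drawn anew. A separate count, over all 5489 parental cells, used 115 genes at least 1 log2 unit higher in Clone E than in each other clone, with genes of the other cells of the Clone E library and mitochondrial genes left out. By it, 4.90% of parental cells (interval 4.34 to 5.51%) reached the 10th percentile of Clone E cells, 53 UMIs, against 2.91% of EM1, 1.53% of EM2, 0.379% of EM3 and 0.355% of M cells. For the like set of M, with 14 genes, the share was far above the 4.39% of cells nearest M: 51.9% of parental cells (2850) reached the 10th percentile of M cells, 5 UMIs, against 9.12 to 31.4% of the cells of the other 4 clones. A single gene of that set, Maged1, stood at 1161 CPM in the parental cells, of 1704 CPM for the set, against 1578 CPM in M and 439.5 to 585 CPM in the other 4. For the sets of EM1, EM2 and EM3, with 6, 2 and 2 genes, this percentile was 0 UMIs, so they separate no cells. All these sets were chosen by the levels of these same clone cells, and the parental cells had no part in the choice. Low shares in the other clones are thus set in part by the choice, and the parental shares cannot be weighed against them.

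Leiden clustering of the parental tumour cells gave 10 sub-clusters, numbered by size and left without type names; their leading genes chose them and are given as a description. Sub-cluster 1, with 2185 cells (37.3%), was led by the matrix proteases Mmp13 (238 CPM against 38.8 CPM in the other parental tumour cells), Mmp12 and Mmp10, with F13a1, Slfn2, Pdgfb, Ctla2a and Igfbp7. Sub-cluster 2, with 902 cells (15.4%), was led by cell division genes, with the topoisomerase Top2a at 919 CPM against 44.7 CPM and the proliferation marker Mki67 at 349 CPM against 21.7 CPM, and with the histone genes Hist1h1b, Hist1h2ae and Hist1h2ap. Dividing cells did not stand apart in epithelial content, with a score of 0.91 and a mean of 3.02 UMIs of the 11 genes against 3.62 over all cells.

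The sub-clusters furthest from the epithelial side were 3 and 5. Sub-cluster 3, with 864 cells (14.8%), was led by Crhbp, Dmp1, Padi1, Procr (1459 CPM against 511 CPM), the adhesion molecule Sele, Slpi (3877 against 1434 CPM), Il6 (106 against 34.4 CPM) and Nr4a3. Its score was 1.94 and Cdh1 stood at 6.35 CPM. Csf3 stood at 4276 CPM, Cxcl1 at 2828 CPM and Ptgs2 at 6788 CPM there, against 2985, 1933 and 3829 CPM over all parental tumour cells. The immune signal list summed to 20738 CPM against 12985 CPM in the rest, while the median log2 ratio of its 28 genes was 0.25. Sub-cluster 5, with 369 cells (6.30%), was led by Mxra8 (230 against 21.4 CPM), Map1a, the retinoic acid-degrading enzyme Cyp26b1, Trp53i11, Sdc3, the bone matrix gene Ibsp, Tspan15 and Pltp. Its score of 2.83 was the highest, with Vim at 18278 CPM, Serpine2 at 2113 CPM, Epcam at 15.5 CPM and Cdh1 at 3.42 CPM, while Csf3 was 793 CPM. Both groups were poor in epithelial genes: at least 7 UMIs of the 11 genes were found in 9 of 858 and 1 of 368 of their cells. EM3 was the nearest clone for 59.4% of the cells of sub-cluster 3 and 72.3% of sub-cluster 5, against 9.82% of sub-cluster 1. With the genes of the other Clone E library cells and the mitochondrial genes left out, EM2 was the nearest clone for 59.9% of the cells of sub-cluster 3 and EM3 for 36.1%, and sub-cluster 5 was split between EM3 (48.9%) and EM2 (44.6%).

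Stress programmes led 2 further sub-clusters. Sub-cluster 4, with 612 cells (10.5%), was led by the heat shock genes Hspa1b (4335 against 1128 CPM), Hsph1, Dnajb1 and Dnajb4, with Hmox1 (2058 against 772 CPM), Ggct and Tnnt3, and its Serpine2 was 210.3 CPM. Sub-cluster 6, with 335 cells (5.72%), was led by the immediate early genes Fos (5215 against 333 CPM), Atf3, Jun, Fosb and Klf2 with Hes1, Dusp1 and Hspb1, many of which are known to be induced also by tissue digestion. Its score was the second lowest, 0.18, its Cldn4 1225 CPM and its Csf3 529 CPM, and 123 of its 308 cells with 3000 UMIs (39.9%) had at least 7 epithelial UMIs. The nearest clones of its cells ran from 18.2% for Clone E to 23.4% for EM2, with EM3 at 18.5%, and with the same genes left out from 11.0% for EM3 to 25.6% for EM1. Its median depth was 8889 UMIs, against 12910 in sub-cluster 1, and the part of depth in this was not tested.

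The 4 smallest sub-clusters carried signs of low quality or of other cells. Sub-cluster 7 (205 cells) had a median of 2935 UMIs and was led by Eid3 and mitochondrial genes. Sub-cluster 8 (178 cells) had a median of 1251 UMIs and was led by the macrophage and leukocyte genes Mpeg1, Apoe, Tyrobp, Ctss, Laptm5, Arg1, Lyz2 and C1qa. Sub-cluster 9 (159 cells) was led by the granulocyte genes S100a9 (1812 against 53.3 CPM), S100a8, Ngp, Camp, Srgn, Cstdc4, Ltf and Clec4d at a median of 18379 UMIs, with Vim at 11865 CPM and Krt8 at 1895 CPM, so tumour markers were present in it. Without sub-clusters 7 to 10, S100a8 stood at 58.6 CPM over the remaining 5267 parental cells in place of 118 CPM and S100a9 at 50.3 CPM in place of 134 CPM. Vim stood at 13183 CPM in place of 13012 CPM and Serpine2 at 683 CPM in place of 693 CPM. Outside sub-cluster 9 the granulocyte list stood at 224 CPM in place of 371 CPM, against 257 to 1535 CPM in the clones with all their cells. Since S100a8 and S100a9 lead sub-cluster 9, their part of these changes is a description.

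Sub-cluster 10, with 44 cells (0.752%), was the only one with a score below 0, −2.48. It was led by Fcgbp (1475 against 0.580 CPM), the milk-type protein gene Wfdc18 (865 against 0.355 CPM), Krt19 (3920 against 36.9 CPM), Hspa1a, Ceacam1, Igfbp5, Ptn and the mucin Muc4. The basal keratins Krt5 and Krt17 stood at 418 and 385 CPM and the luminal progenitor genes Elf5 and Aldh1a3 at 42.8 and 444 CPM, against 9.33, 106, 5.05 and 19.4 CPM in the summed Clone E tumour cells. Serpine2 was 159 CPM and Vim 5936 CPM, and the macrophage list stood at 2026 CPM at a median depth of 4929 UMIs. Without these 44 cells the summed score was 0.93 in place of 0.84, and Cdh1 was 48.0 CPM in place of 51.9 CPM. Krt19, which leads the sub-cluster, was 36.9 CPM in place of 56.2 CPM.

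At a finer resolution (16 clusters) a larger epithelial group came out of sub-cluster 1. It held 162 cells (2.77%, interval 2.36 to 3.22%), 161 of them from sub-cluster 1, with a score of −1.09 and a median depth of 11862 UMIs. Krt14 (429 CPM), C3, Cdh1 (355 CPM), the receptor Erbb3, Fxyd3, Epcam (1264 CPM), Cldn4 (1362 CPM) and Mmp13 led it. Krt17 was 30.8 CPM there, against 339.7 CPM in the 46 cells that hold sub-cluster 10 at this resolution, and Cldn4 was 4893 CPM in those. Serpine2 was 79.5 CPM, Vim 8065 CPM and Fn1 18175 CPM, so it lay between Clone E (3.30, 4415 and 14213 CPM) and the parental sum (693, 13012 and 10216 CPM) for Serpine2 and Vim and above both for Fn1. The finer clusters also set apart 52 cells led by interferon-induced genes, with Isg15 at 1133 CPM and Ifit1 at 472 CPM, 470 cells led by Ccn2, Bnip3, Ackr3 and the hypoxia-induced genes Ero1l and Ndrg1 (1910.5 CPM), and 646 cells led by Nos2 (145 CPM), Cxcl5 and Saa3 with Ccl2 at 531 CPM.

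**Figure D5:**
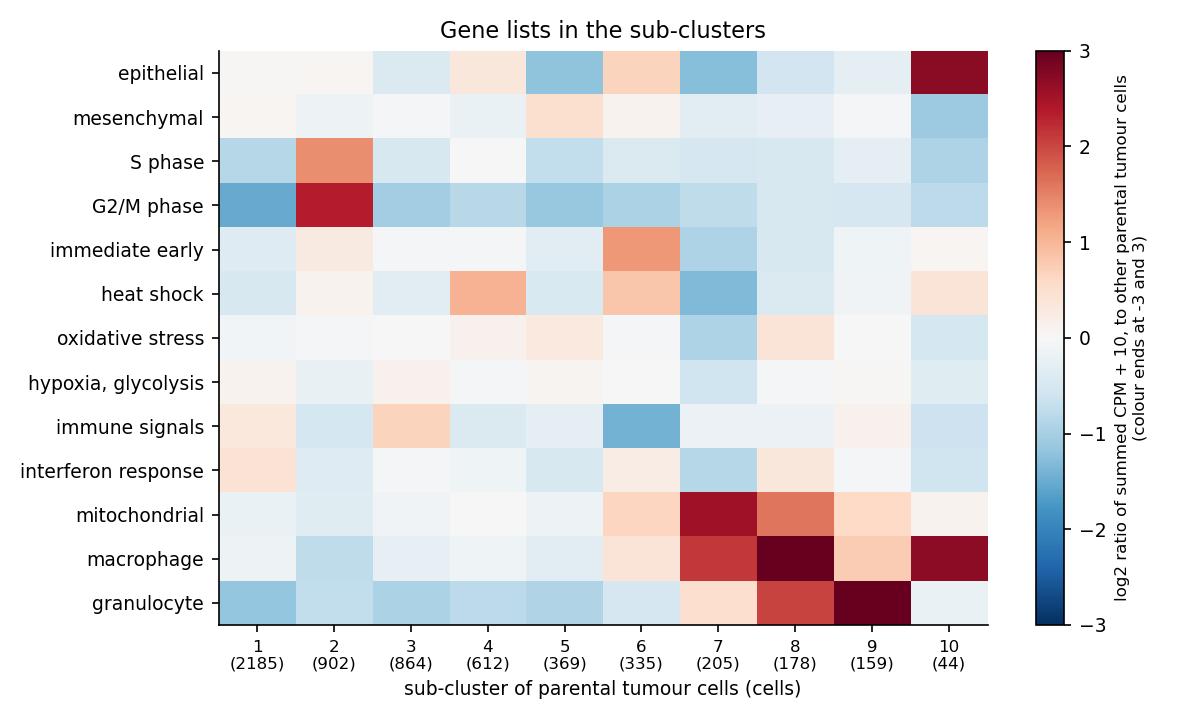
Colour gives the log2 ratio of the summed CPM plus 10 of a gene list in each sub-cluster of the parental tumour cells to that in the other parental tumour cells, with the colour ending at −3 and 3; the number of cells is under each sub-cluster. The G2/M list is high in sub-cluster 2, the immediate early list in sub-cluster 6, the epithelial list in sub-cluster 10, the macrophage list in sub-clusters 7, 8 and 10, and the granulocyte list in sub-clusters 8 and 9.

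The genes most uneven between parental cells were measured by the Fano factor, the variance of UMIs per cell over their mean at 3000 UMIs, which is 1 for random counting. The 25 highest among genes with a mean of at least 0.1 UMI fell into few kinds. Granulocyte genes S100a9 (42.5) and S100a8 (27.9) were uneven in the clones too (5.22 to 125 and 2.28 to 83.4). Immediate early and stress genes made up a second kind: Fos (27.7), Jun (19.0), Hspa1b (17.3), Atf3 (17.1), Ccn1 (15.1), Fosb (12.6), Ier3 (11.9), Egr1 (11.4) and Klf2 (9.84). Secreted proteins and the prostaglandin synthase Ptgs2 made up the third kind, with Slpi (29.5), Spp1 (19.4), Ptgs2 (12.5), Cxcl2 (10.5), Csf3 (10.3), Cxcl1 (9.43) and Lcn2 (8.88), the metallothioneins were Mt2 (13.5) and Mt1 (8.82), and Odc1 stood at 11.8. Only Fn1 (21.2), Vim (9.96), Krt19 (16) and Cldn4 (10.9) of these 25 were on the epithelial or mesenchymal list. For Slpi, Atf3, Mt2, Odc1, Egr1, Cxcl2 and Klf2 the parental value was above that of all 5 clones. The mean was above that of all 5 clones for 3 of these 7, with Odc1 at 14.2 UMIs per cell against 4.71 to 9.31, Mt2 at 11.8 against 2.79 to 8.04 and Cxcl2 at 2.60 against 0.405 to 1.86, and the part of the mean was not tested. Over 4993 genes with that mean in every tumour, the median was 1.06 in the parental cells and 1.05 to 1.11 in the clones, and 148 genes (2.96%) reached 2 in the parental cells against 133 to 235 in the clones. The parental values for the median and the count thus lay inside the range of the tumours grown from single cells. For the summed epithelial UMIs the Fano factor was 13.3 in the parental cells, 28.2 in E, 18.4 in EM2, 11.3 in EM1, 8.74 in M and 4.49 in EM3, and 7.54 in the parental cells without sub-clusters 7 to 10, while the clone values keep all their cells.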

How the data were processed

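UMI counts of the authors, 1 table per library and not normalized, were the starting point, and the deposited metadata give each cell's class, UMI total and mitochondrial percent, also as a fraction. The submitters' processing notes name Cell Ranger and mm10; versions and filters are not given in the sources used here. The labels name both a fixed-RNA preparation kit and a 3′ kit. Doublets were scored in each of the 12 libraries with a scheme like that of Scrublet (2 simulated pairs per cell), and 3451 of 115612 cells were left out above a single score limit. Counts were summed per tumour, scaled to CPM by total UMIs and compared as log2((CPM + 10) ratio) over genes with at least 50 CPM in any tumour. Per-cell measures used counts thinned to 3000 UMIs. Clustering used 2000 variable genes, 30 components, 20 neighbours and Leiden at resolution 0.5 (scanpy 1.11.5, leidenalg 0.10.2). With 1 tumour per group, no p-value was computed. The nearest-clone choice, the fold limit, the thinning and the Fano factor were tested on simulated data, with simulated cells drawn from the clone profiles themselves. Doublet scoring, clustering, the summed score and the balance per cell were not tested in this way. Named genes were the 20 of highest CPM, the 25 of highest Fano factor, the 8 leading each sub-cluster and members of 33 gene lists. Of the genes furthest above and below all clones, only some were named, picked after their values were seen. So were the MHC class II presentation genes Cd74 and H2-Aa. The text leaves out 1 gene among those leading a sub-cluster, which is not reported here. The members and lists were chosen with earlier results of these data known. RefSeq promoters are from GRCm38.p6.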

Additional observations from a re-analysis of the deposited data

How the results depend on the processing

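Of 54 alternative values, 21 stayed within the spread used to judge them, 33 moved and 0 reversed; 18 of the alternatives were chosen after seeing the data. The causes were not tested. Leaving out sub-clusters 7 to 10 before thinning also draws new UMIs for the other cells, so per-cell values are given for a new and for the same draw. Keeping cells with at least 1000 genes gave a tumour share of 62.5%. The summed score was 0.23 with a pseudocount of 1 CPM, 0.33 without Fn1 and 0.92 without sub-clusters 7 to 10. The distance to EM2 was 0.319 with a minimum of 10 CPM, 0.413 with 200 CPM and 0.426 with a pseudocount of 1. With that pseudocount 1 gene lay above all 5 clones and 3 below, with no minimum 1 lay below, and at a limit of 0.5 the counts were 21 and 14. The median balance was 2.64 at 1500 UMIs, 2.05 without Fn1, 3.83 without Krt8, Krt18 and Vim, and 2.69 (new draw) or 2.73 (same draw) without sub-clusters 7 to 10. The share inside the range of Clone E was 42.0% at 1500 UMIs, 32.9% at 6000 UMIs, 14.0% without Fn1 and 24.4% without Krt8, Krt18 and Vim. The share nearest Clone E was 6.78% with genes differing by at least 2, 6.87% at 1500 UMIs and 3.10% (new draw) or 2.87% (same draw) without sub-clusters 7 to 10. The share nearest EM2 was 63.3% with genes differing by at least 2, 58.1% at 1500 UMIs, 61.6% without sub-clusters 7 to 10 (same draw) and 64.9% without genes of the other cells of the Clone E library and mitochondrial genes. The Fano factor of epithelial UMIs was 7.04 at 1500 UMIs, 14.4 without Krt8 and Krt18 and 7.5 (new draw) or 7.54 (same draw) without sub-clusters 7 to 10. Resolution 1 gave 16 sub-clusters. No paired analysis was possible because the labels carry no replicate numbers and each line gave 1 tumour.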
